A study of Bos taurus with 2 samples.

Results

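ARGFX (ENSBTAG00000002273) and TRIM43 (ENSBTAG00000009197) are 2 of the 19043 annotated protein coding genes counted in bovine embryos produced by in vitro fertilization (IVF). Both were selected on their higher counts in embryos that had stopped short of the blastocyst stage, and both are genes of the early period in which the embryonic genome is switched on. Their difference between the libraries is therefore described, with no test. The study sequenced RNA from a pool of 20 blastocysts and a pool of 20 embryos of retarded morphology, called degeneratives, all collected on Day 8 and all of Bos taurus. All embryos had shown compaction into a morula, were fertilized in vitro and were kept in culture. The pools differed in morphology, since the embryos of the first had formed the fluid-filled cavity and inner cells of a blastocyst by that day and those of the other had stayed at an earlier form. No other treatment, genotype or breed is given in the labels. Each condition was thus represented by 1 pool and 1 library, and no value has an error between replicates. The embryos of a pool share 1 RNA extraction, so that they are not replicates.

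ARGFX encodes a homeobox protein of the PRD class, a group of transcription factors that bind DNA through a homeodomain. In mammals, several PRD-class genes are transcribed in the cleavage stage embryo and are silent in most adult tissues. TRIM43 encodes a protein of the tripartite motif (TRIM) family, whose members carry a RING domain and often act as ubiquitin ligases. In human cells TRIM43 is a known target of DUX4, a double homeobox factor of genome activation. When the embryo switches on its own genome, a first set of genes is transcribed and is followed, in normal development, by genes of the first lineages, the trophectoderm and the inner cell mass. This background comes from general knowledge and not from the counts.

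Over all genes, the blastocyst library held 10687008 raw counts and the degenerative library 6514505. A single fragment was thus worth 0.0936 CPM, a count scaled to the same total for each library, in the former and 0.154 CPM in the latter. A floor of 3 counts stood at 0.281 CPM and 0.461 CPM. The totals behind CPM hold only fragments within constitutive exons. In the paper, the libraries had similar numbers of uniquely mapped fragments, and degeneratives had the larger share of intronic fragments. CPM is therefore not a correction for sequencing depth alone. All intervals below are exact 95% intervals for the sampling of fragments. They do not cover amplification, or differences between pools of the same kind. A lower count in a pool can come from fewer cells that express a gene or from less of its RNA in each cell, and these cannot be told apart. Identifiers could be paired with names only for 39 genes, all from the study's list of differentially expressed genes. The stage of the embryos was therefore not checked against lineage markers. No DNA or protein sequence of the 2 genes was analysed here.

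For ARGFX, 123 fragments were counted in the blastocyst library and 768 in the degenerative one. Its level was 11.5 CPM (95% interval 9.57 to 13.7) in blastocysts and 118 CPM (109.7 to 126.5) in degeneratives. The gene was thus clearly detected in both pools, and the intervals were far apart. The authors' normalized counts, which are quantile normalized and rounded, were 111 and 952. On this scale ARGFX was 8.58 times as high in degeneratives, with an interval of 7.08 to 10.5 for counting error. A blastocyst library with the degenerative share of ARGFX would have held 1260 counts, of which the observed count was 9.76%.

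For TRIM43, only 7 fragments were counted in blastocysts, against 608 in degeneratives. The exact Poisson interval of the 7 counts ran from 2.81 to 14.4 counts, so that its lower end lay just under the floor. The level was 0.655 CPM (0.263 to 1.35) in blastocysts and 93.3 CPM (86.1 to 101.1) in degeneratives. TRIM43 was therefore near the limit of detection in blastocysts and well measured in degeneratives. Its normalized counts were 8 and 746, and it was 93.3 times as high in degeneratives, with an interval of 45.0 to 233 that was set by the few blastocyst counts. At the degenerative share, the blastocyst library would have held 997 counts, of which the observed 7 were 0.702%. Conversely, the blastocyst share would have given 4.27 counts in the degenerative library, which leaves 604 of the 608 counts beyond it.

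**Figure D1:**
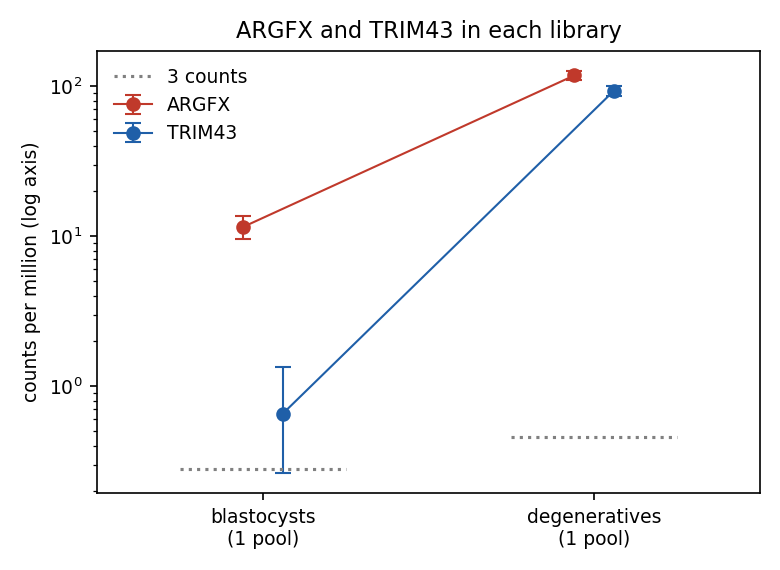
Level in CPM (log axis) of ARGFX (red) and TRIM43 (blue) in the library of each pool, with exact 95% intervals for counting error as bars and a floor of 3 counts as dotted lines. ARGFX lay at 11.5 and 118 CPM and TRIM43 at 0.655 and 93.3 CPM, and the interval of TRIM43 in blastocysts reached the floor. The values are not divided by gene length, so that only the 2 libraries, and not the 2 genes, can be compared by height.

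The 2 genes differed in how far they stood apart between the libraries. This was measured by dividing the ratio of TRIM43 by that of ARGFX, a quantity in which library size and gene length both cancel. From the raw counts, the TRIM43 ratio was 13.9 times the ARGFX ratio, with an exact conditional interval of 6.48 to 35.5 for counting error. The same difference appeared within each library as the number of ARGFX counts per TRIM43 count. This number was 17.6 in blastocysts and 1.26 in degeneratives. The lengths of the counted exons are not known, and these numbers therefore say nothing about which of the 2 transcripts was more abundant. Together the 2 genes took 130 counts, or 12.2 CPM, in blastocysts and 1376 counts, or 211 CPM, in degeneratives.

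Quantile normalization did not scale the 2 genes alike. In blastocysts it multiplied the count of ARGFX by 0.902 and that of TRIM43 by 1.14. In degeneratives the factors were nearly the same, at 1.24 and 1.23. On the normalized scale the ratio of TRIM43 was consequently 10.9 times that of ARGFX, a value inside the interval from the raw counts.

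Both genes stood higher among all genes in degeneratives than in blastocysts. In blastocysts ARGFX shared ranks 6381 to 6404 with 23 others at 123 counts, where 66.4% of the 19043 genes had fewer counts. In degeneratives it was at ranks 1760 to 1762, above 90.7% of genes. Its place thus differed by 4621 ranks. TRIM43 was one of 304 genes with 7 counts in blastocysts, at ranks 11766 to 12069, and stood above 36.6% of genes, a share that includes genes without any count. In degeneratives it was at ranks 2213 to 2218, above 88.4% of genes, which is 9553 ranks higher. Both differences in rank were taken between the first of the tied ranks. The place of TRIM43 in blastocysts is only approximate, since 1773 other genes had between 5 and 10 counts there. The median gene had 23 counts in blastocysts and 24 in degeneratives. TRIM43 was below the median gene in blastocysts and at 25.3 times the median gene in degeneratives. ARGFX was above it in both pools, at 5.35 and 32.0 times.

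**Figure D2:**
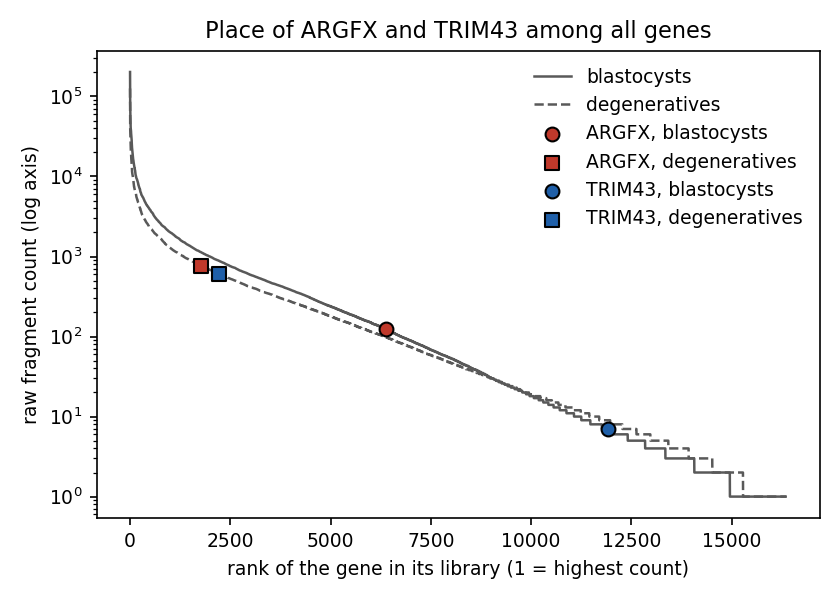
Raw fragment count (log axis) against the rank of each gene in its library, with a solid line for blastocysts and a dashed line for degeneratives. Circles mark the 2 genes in blastocysts and squares mark them in degeneratives. ARGFX (ranks 1760 to 1762) and TRIM43 (ranks 2213 to 2218) lay closer together in degeneratives than in blastocysts. In blastocysts the first of their tied ranks were 5385 apart.

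The ratios of all genes gave the background for the 2 members. A minimum of 10 counts, summed over the libraries, was met by 13171 genes, of which 376 were at least 4-fold higher in degeneratives by log2 of the normalized counts with a pseudocount of 1. This was 2.85% of genes. At least 4-fold lower were 175, or 1.33%. Both members were among the 376, which follows from their choice and is not a result. On this scale the log2 ratio was 3.09 for ARGFX and 6.38 for TRIM43, while the median over the 13171 genes was -0.03. The pseudocount draws in the ratio of TRIM43, whose log2 value without it was 6.54. For ARGFX the value without it was 3.10.

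TRIM43 had the third highest log2 ratio of the 13171 genes. The 2 genes above it, named here because of their values, were LOC525100 with 0 and 398 raw counts and ENSBTAG00000039628 with 2 and 268. Neither reached the degenerative count of TRIM43. Within the counting interval of its ratio lay the ratios of 9 other genes, so that its exact place among these is not settled by the counts. Below the interval were 13132 genes, and the remaining 29 had a normalized count of 0 in blastocysts and hence no ratio.

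ARGFX had rank 85 by ratio. Most of the 84 genes above it were scarce, with a median normalized count of 52.0 in degeneratives, and 51 of them had at most 100. A higher ratio together with a higher normalized count in degeneratives was found for 6 genes. Within the interval of its ratio lay 92 other genes. The place of ARGFX by ratio alone was thus less settled than that of TRIM43, and scarce genes, whose ratios have large counting errors, filled much of the order above it.

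**Figure D3:**
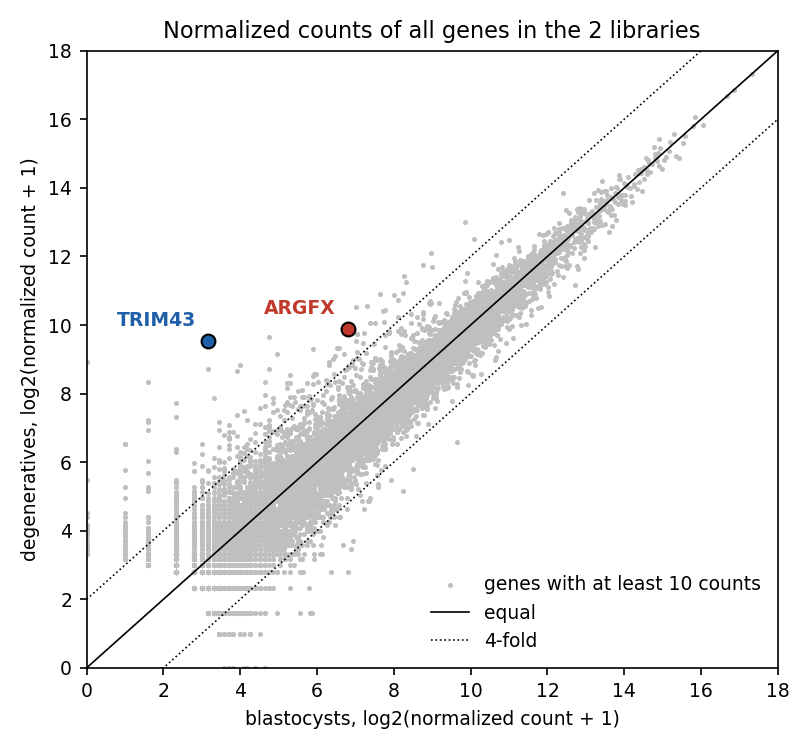
Authors' normalized counts in degeneratives against blastocysts, both as log2 of the value plus 1, for the 13171 genes that met the minimum (grey), with lines for equal values and for a 4-fold difference. ARGFX (red, 111 and 952) and TRIM43 (blue, 8 and 746) both lay above the upper 4-fold line, at similar heights but far apart along the blastocyst axis.

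Genes of like level were then set beside each member. A level was taken as alike within 1.5 times in either direction. By the mean normalized count of the 2 libraries, 1760 other genes were like ARGFX, and their log2 ratios had a median of -0.01 with quartiles of -0.29 and 0.23. Of these genes, 15 were at least 4-fold higher and 1 was at least 4-fold lower in degeneratives, and 2 had a higher ratio than ARGFX. For TRIM43 there were 1863 such genes, with a median of -0.03 and quartiles of -0.32 and 0.26. At least 4-fold higher were 20 of them and 1 was at least 4-fold lower, and the highest log2 ratio among them was 4.89, against 6.38 for TRIM43. The 2 groups of genes overlap, and each member lay in the group of the other. TRIM43 is thus 1 of the 15 genes at least 4-fold higher beside ARGFX and 1 of the 2 with a higher ratio, and ARGFX is 1 of the 20 beside TRIM43.

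The counts in one library were also followed into the other. Among 1614 genes with a blastocyst count like that of ARGFX, between 82 and 184 raw counts, the degenerative count had a median of 95.0 and quartiles of 69 and 126. Only 2 of them had more than the 768 counts of ARGFX, and they are named because they are so few. These were CRYAB_BOVIN, the entry name of a small heat shock protein, with 1165 counts, and Q2KJC7_BOVIN with 1157. Among 1773 genes with a blastocyst count like that of TRIM43, between 5 and 10, the median in degeneratives was 8 counts and 60 genes had no count. The highest of them reached 349 counts, which was below the 608 of TRIM43. The split at so few blastocyst counts depends on sampling, and a gene with 5 counts does not differ detectably from one with 10.

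**Figure D4:**
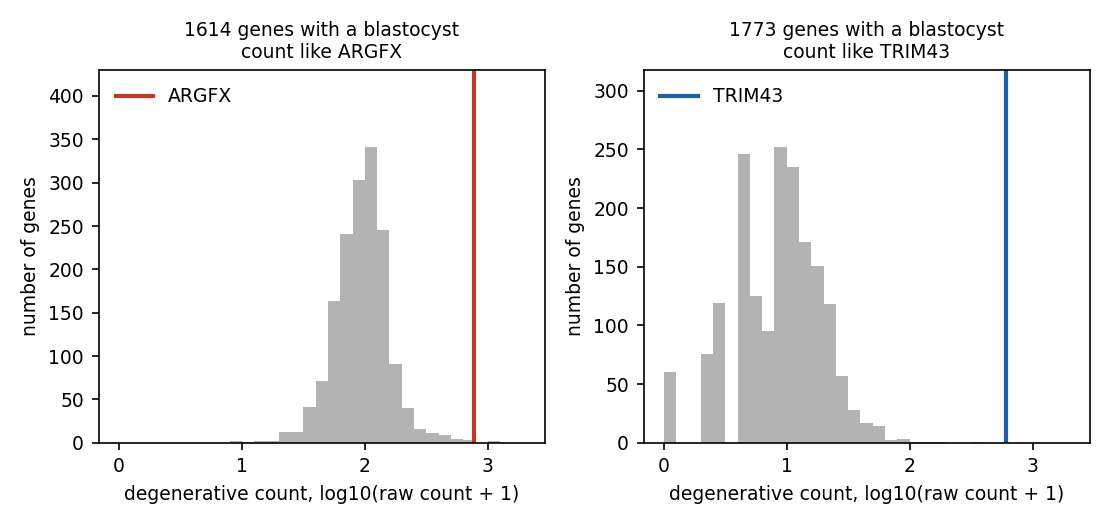
Distribution of the degenerative count, as log10 of the raw count plus 1, over genes whose blastocyst count lay within 1.5 times that of ARGFX (left, 1614 genes) or TRIM43 (right, 1773 genes). The vertical line marks the member, at 768 and 608 counts, above the bulk of genes in both panels and above all of them for TRIM43.

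In the other direction, 1443 genes had a degenerative count like that of ARGFX. Their blastocyst counts had a median of 1071, and 5 of them, TRIM43 included, had fewer than its 123. For TRIM43 there were 1587 genes of like degenerative count, with a median of 859 in blastocysts. The lowest of these had 26 counts in blastocysts, above the 7 of TRIM43. Here TRIM43 lay outside the range of the other genes, and ARGFX lay near its end. Both genes were selected on their difference between these same libraries. Extreme places in the matched comparisons therefore follow from that choice and are no test of the genes.

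The genes nearest to each member were found by distance in the plane of the log2 normalized counts of the 2 libraries. With only 2 libraries such likeness is a likeness of level and ratio. The names are entry names from the study's list of differentially expressed genes, which the authors called with DESeq in these same libraries without replicates. A neighbour with a name is therefore a gene on that list. Nearest to ARGFX was 5NTD_BOVIN, an ecto-enzyme that makes adenosine from AMP, with normalized counts of 130 and 859 and a distance of 0.27. It was followed by T176A_BOVIN, a membrane protein, with 130 and 852 at a distance of 0.28. The third was MMP2_BOVIN, a metalloproteinase acting on extracellular matrix, with 128 and 744 at 0.41. Their ratios were between 5.81 and 6.61, all below the interval of the ARGFX ratio, although these genes have counting errors of their own. Within a distance of 1, 22 other genes lay around ARGFX.

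TRIM43 had few such neighbours. Within a distance of 1 there was 1 other gene, LOC788412, with the same 7 raw counts in blastocysts and 349 in degeneratives, at a distance of 0.83. The next were K2C4_BOVIN, a type II keratin, at 1.10 and LOC538435 at 1.14. They had normalized counts of 15 and 451 and of 14 and 407. Their ratios of 30.1 and 29.1 lay below the interval of TRIM43, whereas that of LOC788412, 52.5, lay inside it. ARGFX and TRIM43 were at a distance of 3.65 from each other, most of it along the blastocyst axis.

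Genes at the limit of detection in one pool and clearly counted in the other were few. At most 7 counts in blastocysts with at least 300 in degeneratives were found for 3 genes, TRIM43, LOC525100 and LOC788412. The reverse was found for 0 genes. Summed over all genes, the blastocyst library held more exon counts, but the paper reports similar numbers of uniquely mapped fragments for both libraries. At a minimum of 100 counts in the richer library, the numbers were 9 and 1 of the 19043 genes. A skew to the same side was present among the 13171 genes, with 376 at least 4-fold higher and 175 at least 4-fold lower in degeneratives. TRIM43 had the highest count of the 9. These limits were set at the count of TRIM43 after it was known, and the counts are given with no test.

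The ratios were finally compared across the ways of scaling the libraries. ARGFX was between 6.43 and 10.2 times as high in degeneratives, the former with the uniquely mapped fragments and the latter with the summed counts as library sizes. TRIM43 was between 89.4 and 142 times as high in the same settings. With TMM factors the ratios were 8.13 and 113, and with median-of-ratios factors they were 7.91 and 110.0. Both genes were higher in degeneratives under each of these scalings and in the raw counts. The interval of TRIM43 did not meet that of ARGFX in any of them. A library size multiplies the ratios and intervals of both genes alike. Under those scalings the gap between the intervals therefore follows from the raw counts and is not further support.

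**Figure D5:**
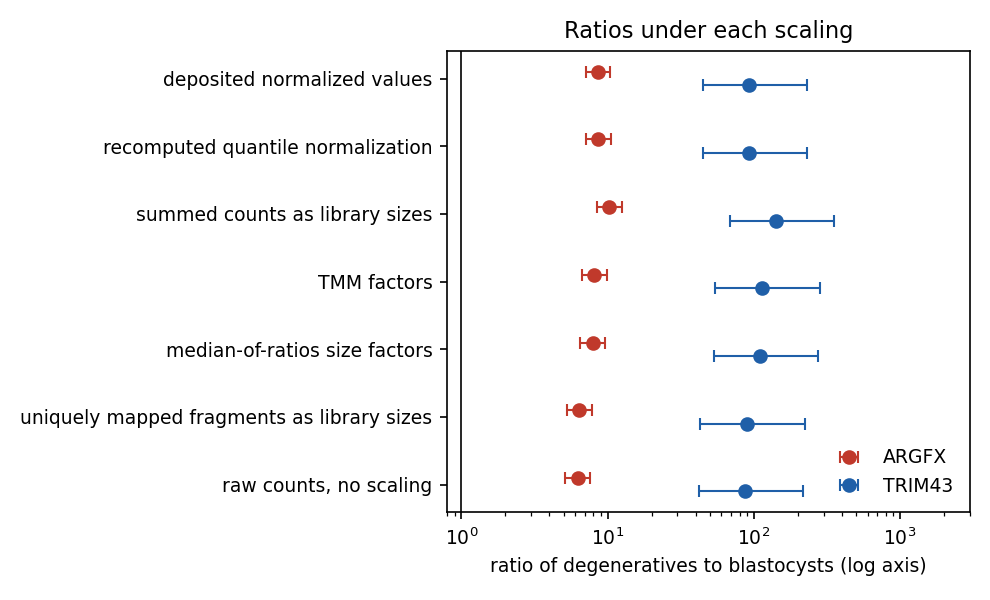
Ratio of degeneratives to blastocysts (log axis) for ARGFX (red) and TRIM43 (blue) under 7 ways of scaling the libraries, with exact 95% intervals for counting error as bars and a line at 1. ARGFX lay between 6.24 and 10.2 and TRIM43 between 86.9 and 142, and the bars of the 2 genes did not meet in any row. Scaling by library size moves the bars of both genes alike, so that these rows are not separate comparisons.

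Of the annotation, little can be added for the 2 genes. In the RefSeq gene table of the ARS-UCD2.0 assembly, ARGFX is a single protein coding gene on chromosome 1, with POLQ and FBXO40 as the nearest protein coding genes on either side. That assembly is not the Btau4 assembly to which the fragments were mapped, and no coordinates are given. The table pairs no Ensembl identifier with a symbol, and it was matched to ARGFX by name alone. No entry of that table is named TRIM43, although it holds 56 TRIM symbols. The names of both identifiers come from the study's list of genes, and the pairing of ENSBTAG00000009197 with TRIM43, on which every value given for TRIM43 rests, was not checked against a gene model. TRIM genes can have close copies, and the counts of TRIM43 are uncertain to the extent that fragments of such copies were assigned to it. Whether this differed between the libraries was not tested. Sequencing was not stranded, so that transcripts antisense to either gene would also have been counted.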

How the data were processed

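RNA of 1 pool of blastocysts and 1 pool of degeneratives, linearly amplified, was sequenced by the authors. TopHat 1.0.13 aligned the fragments to Btau4, with repeats masked, and those within constitutive exons that genes do not share were counted by the authors. The deposited raw counts are not normalized. The second deposited column is a score, the count that the authors quantile normalized with limma and rounded. Quantile normalization recomputed here with limma equalled this column for 75.4% of values in blastocysts and 70.1% in degeneratives, so that it was not reproduced exactly.

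From these tables, CPM, ranks, ratios and exact Poisson, binomial and conditional intervals were computed (Python 3.11.15, scipy 1.17.1), with summed counts of 10687008 and 6514505. With 1 library per condition, no significance test of the conditions was run. Alternatives used limma 3.58.1, edgeR 4.0.16 (TMM factors), DESeq2 1.42.0 (size factors), and the study's uniquely mapped fragments. The code for fold calls was tested on simulated data.

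The genes, lists and settings were chosen with earlier results of these data known. Named genes were the 2 members, the 3 nearest to each, and any group of 5 or fewer named as such. The 39 gene names come from the study's list. Planned marker lists, promoter motifs and protein relatives were not analysed here.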

Additional observations from a re-analysis of the deposited data

How the results depend on the processing

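Ratios were held against their counting interval, and counts and ranks against a limit of 1.5 times. By these limits, 29 of 41 alternative values stayed inside and 12 did not. The 29 include the ranks of both genes by normalized count, although quantile normalization keeps the order of genes within a library. They also include ratios of TRIM43, whose counting interval is wide. The tally is therefore no measure of robustness. The direction of both genes was the same in each alternative. The ratio of ARGFX left its counting interval with the uniquely mapped fragments as library sizes, at 6.43. That of TRIM43 stayed inside its interval, from 57.8 with a pseudocount of 5 to 142 with summed counts. The rank of ARGFX by ratio was 128 with summed counts and 37 with a pseudocount of 5, which lowers the ratios of scarce genes, while that of TRIM43 was 2 or 3. The number of genes at least 4-fold higher was 892 with summed counts, 603 with TMM factors, 568 with median-of-ratios factors and 168 with a pseudocount of 5. Those at least 4-fold lower numbered 47, 84, 90 and 41 in the same order, and 398 when genes with any count entered. The share of higher genes among both was 68.2% in the normalized counts and 95.0%, 87.8%, 86.3% and 80.4% in these 4 settings, and 57.9% with any count. Summed counts put the median log2 ratio of all genes at 0.32 and uniquely mapped fragments at -0.34. No paired analysis was possible because each condition had 1 library, and no library could be left out. The depth limits TRIM43 in blastocysts, where 7 counts set its ratio to within a factor of about 5.18 between the ends of its interval.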
